A study of Homo sapiens with 4 samples.

Results

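The p53 pathway target genes described here are 33 genes listed by symbol, from MDM2 and CDKN1A to DRAM1, among 40188 genes with values. All 33 were found by symbol, each at 1 Ensembl ID, and all 33 had a mean level of at least 1 cRPKM over the libraries, the limit used for the 12706 genes compared. cRPKM is a corrected RPKM: reads divided by a length of the gene and by the library total. The data are polyA-selected RNA-seq of HEK293 cells, a human embryonic kidney line, with stably integrated doxycycline-inducible constructs. The control line carries an empty vector, and the others carry MSI1, which binds RNA, or SRRM3 or SRRM4, which both promote inclusion of neural microexons. All 4 lines, the control included, received doxycycline at 1 µg/mL for 24 h. Each group is 1 library, so no difference has a replicate check, no p-value is given, and a difference between cell lines cannot be told apart from an effect of the transgene. The sources used here do not say whether each line is 1 clone. Where 4 values of a gene are given in a row, they follow the library order empty vector, MSI1, SRRM3, SRRM4.

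p53 is a transcription factor that is kept low by the ubiquitin ligase MDM2 and stabilised by DNA damage and other stress. It binds paired decamer elements near its targets and raises genes that stop the cell cycle, start apoptosis, repair DNA or alter metabolism, and it raises MDM2 itself, which closes a feedback loop. HEK293 cells were transformed with adenoviral DNA and carry the E1 genes. E1A binds the RB family and stabilises p53, and the large E1B protein binds p53 and limits its activity as an activator. The adenoviral transcripts were not analysed here, and RNA levels do not show how much p53 protein was present or active.

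Total counts lay between 60288244 and 63003121 per library, and the transgenes matched the labels (MSI1 at 62.43 cRPKM in its own line against 8.38 in the control, SRRM3 at 38.53 against 0.49, SRRM4 at 63.78 against 0.39). The HEK293 marker list (10 genes, among them KRT8, VIM and NEFL) summed to between 1460.03 and 1819.86 cRPKM, and all 10 had reads in every library. VIM alone, at 909.49 (SRRM3) to 1211.14 cRPKM (MSI1), made up most of this sum in each library. Other genes of the list were low, with LHX1 between 3.71 and 4.75 cRPKM and EYA1 between 3.10 and 3.56. PAX2 had a mean of 0.965 cRPKM, under the limit for compared genes. The sum therefore says little about these low genes. Summed levels of 7 fibroblast, 7 blood and 5 mature kidney tubule markers reached at most 4.89, 0.83 and 1.96 cRPKM. COL1A1 (3.23 to 4.29 cRPKM, highest in MSI1) and LRP2 (1.58 to 1.96) made up most of the fibroblast and tubule sums, while COL1A2, DCN, AQP2 and UMOD were at 0.00 cRPKM in every library.

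To show the kind of element through which p53 acts on these genes, windows from 250 bases before to 50 bases after each RefSeq start (GRCh38.p14) were searched for a p53 consensus element, here 2 adjacent decamers with no spacer and up to 3 mismatches in 20 bases. The consensus reads the same on both strands. Such a match was present for 9 of the 27 members with a window (33.3%), for 5.73% of 9527 compared protein-coding genes and in 5.2% of 35116 windows. Genes have unequal numbers of windows, and several of these genes are textbook p53 targets because of such elements, so the share is a description only. FBXO22, GADD45A, TNFRSF10B, TP53INP1, PHLDA3 and RRM2B were not searched. The 5 matches below belong to members from the feedback, apoptosis, repair and metabolic groups, with the 20-base match in capitals and 5 bases on either side in lower case.
MDM2: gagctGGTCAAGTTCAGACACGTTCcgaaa
FAS: ctcctGGACAAGCCCTGACAAGCCAagcca
DDB2: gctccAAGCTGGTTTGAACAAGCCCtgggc
PMAIP1: gtcggGAGCGTGTCCGGGCAGGTCGcgctc
SESN1: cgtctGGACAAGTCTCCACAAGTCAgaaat
Coordinates are those of the 30 printed bases, while positions, mismatches and annotations refer to the capitals alone. The MDM2 match (printed bases chr12:68808918-68808947, plus strand) had 2 mismatches, lay only in intron sequence of GENCODE 29 and began 94 bases before an internal start, with first base at -94. The FAS match (printed bases chr10:88991304-88991333, plus strand, 2 mismatches, first base at -122) overlapped an exon of some transcripts. The DDB2 match (printed bases chr11:47214964-47214993, plus strand) had 1 mismatch, began at -5 and overlapped an exon. The PMAIP1 match (printed bases chr18:59899806-59899835, plus strand, 3 mismatches, first base at -185) lay outside the annotated gene. The SESN1 match (printed bases chr6:109009013-109009042, minus strand, 3 mismatches, first base at -49) was intronic. No binding was measured, and a window without a match says only that these letters are not in it.

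All 33 genes were transcribed in the HEK293 line with the empty vector, at levels from 1.42 cRPKM for SPATA18 to 159.64 for PMAIP1. PMAIP1 (NOXA, a BH3-only protein), CCNG1 (cyclin G1) and CDKN1A (the CDK inhibitor p21) stood at percentiles 96.8, 96.5 and 94.0 of the compared genes. BAX, the apoptosis effector, TRIAP1, an inhibitor of apoptosis, and AEN, a nuclease, were at 83.48, 79.54 and 65.44 cRPKM. The lowest members besides SPATA18 were MDM4 at 2.58, DRAM1 at 2.80 and PLK3 at 2.95 cRPKM. Counts behind these levels ranged from 384 reads for SPATA18 to 22437 for CCNG1. The ratio of count to cRPKM implies that reads were counted over 0.775 kb for FAS and 11.2 kb for MDM2, so the 15.17 cRPKM of FAS rest on only 730 reads.

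**Figure D1:**
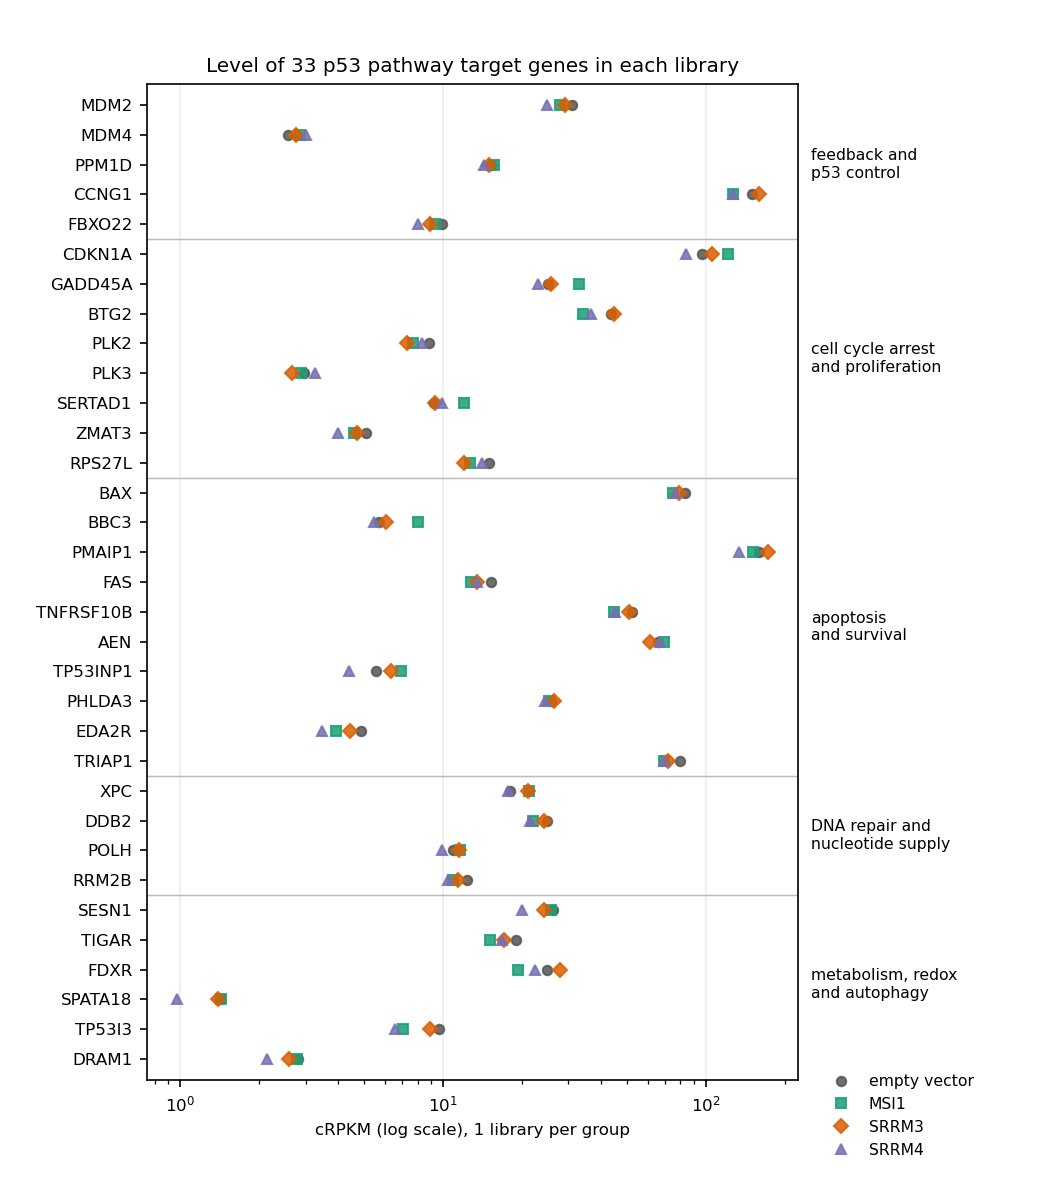
Level of each member in cRPKM (log axis) in the 4 libraries, 1 point per library, ordered by role. Levels span from about 1 cRPKM for SPATA18 to over 150 for PMAIP1 and CCNG1, and the 4 points of a gene lie close together, with the widest separation for TP53INP1.

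The 4 libraries held these genes at similar levels. The highest library exceeded the lowest by 1.085-fold (PHLDA3) to 1.584-fold (TP53INP1), with a median of 1.253-fold, against a median of 1.196-fold over all compared genes. None of the 33 differed by 1.5-fold or 2-fold in MSI1, SRRM3 or SRRM4 over the empty vector or in SRRM4 over SRRM3. The background at 1.5-fold, in either direction, was 2.9, 2.63, 1.84 and 2.2% of compared genes in these comparisons, and at 2-fold 0.677, 0.889, 0.779 and 0.527%. By the order of the libraries, SRRM4 was the lowest for 21 of 33 members (63.6%), against 24.5% of the compared genes. MSI1 was the lowest for 6 (against 26.5%), SRRM3 for 4 (26.6%) and the empty vector for 2 (21.3%). The empty vector was the highest for 16 members (48.5%), against 18.5%. MSI1 was the highest for 10 members (against 33.6%), SRRM3 for 5 (26.1%) and SRRM4 for 2, MDM4 and PLK3 (21%). Summed over the 33 genes the levels were 1062.59, 1014.13, 1069.1 and 930.53 cRPKM in library order.

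SRRM4 against the empty vector asks which genes differ when SRRM4 is induced, and here most p53 targets were lower by a small amount. Their median log2 fold was -0.20 (quartiles -0.29 and -0.09), against -0.003 (quartiles -0.09 and 0.08) for all compared genes, on the scale log2(cRPKM + 0.5). Of the 33 members 29 were lower (87.9%), against 50.9% of compared genes, and 26 were lower with a 95% counting interval of the count ratio that excluded 1, against 25.1%. Such intervals cover counting error only and compare the pair of libraries, not the conditions. A gene was counted as different where it was at least 25% higher or 20% lower on that scale, an absolute log2 fold of 0.322. This limit sets a size and carries no p-value. It and the members were chosen with a small negative median of p53 targets in SRRM4 already known from these data. The shares in this paragraph are therefore a description and not independent support. By it 4 members were lower (TP53I3, EDA2R, SPATA18 and SESN1), 12.1% against 2.94% of compared genes, and none was higher, against 3.36%. DRAM1, MDM2, TP53INP1 and ZMAT3 lay just outside that limit, at log2 folds of -0.32, -0.32, -0.32 and -0.31. Their count ratios, which carry no pseudocount, were 0.765, 0.798, 0.785 and 0.786. Each was thus more than 20% lower by counts and missed the limit only through the pseudocount of 0.5. With a pseudocount of 0.1 the count of lower members was 8, with CPM and TMM factors 7, and with a mean of at least 5 cRPKM required 2. With a pseudocount of 2 it was 3, because SPATA18 lost its call (-0.204).

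MSI1 against the empty vector put few members past the limit, and the counts in both directions were near the share of all compared genes. The higher genes were BBC3, GADD45A, SERTAD1 and CDKN1A (4 of 33, 12.1% against 7.44% of compared genes), and the lower genes were TP53I3, FDXR and BTG2 (3 of 33, 9.09% against 4.86%). The median log2 fold was -0.09, with quartiles of -0.23 and 0.08, against 0.02 for all compared genes. Lower at any size were 22 members, 66.7% against 46.1%. With a pseudocount of 2 the higher count was 2, and with CPM and TMM factors the lower count was 5. CDKN1A lay on the limit, with a log2 fold of 0.324 that was 0.319 with a pseudocount of 2, 0.308 with centring and 0.293 with TMM factors, so that its call ended under all 3. SERTAD1 (0.362) lost its call with a pseudocount of 2, at 0.319.

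SRRM3 against the empty vector showed no member past the limit in either direction, against 3.75% of compared genes lower and 6.19% higher. The extremes were RPS27L, a ribosomal protein S27 paralog, at a log2 fold of -0.31 and XPC, the damage sensor of nucleotide excision repair, at 0.21. The median was -0.04, with 20 of 33 members lower (60.6% against 49.1%). With CPM and TMM factors 1 member passed the limit on the lower side. These comparisons share the empty-vector library, so their folds are not independent. Against MSI1 as control, which leaves the empty vector out, the SRRM4 median was -0.09 and the SRRM3 median -0.004, against -0.02 for all compared genes in both. SRRM3 then had 3 members past the limit on either side, 9.09% against 7.31% of compared genes lower and 8.03% higher. SRRM4 over MSI1 had 6 members past the limit on the lower side (18.2%), against 1118 of 12706 compared genes. It had 0 on the higher side, against 772.

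**Figure D2:**
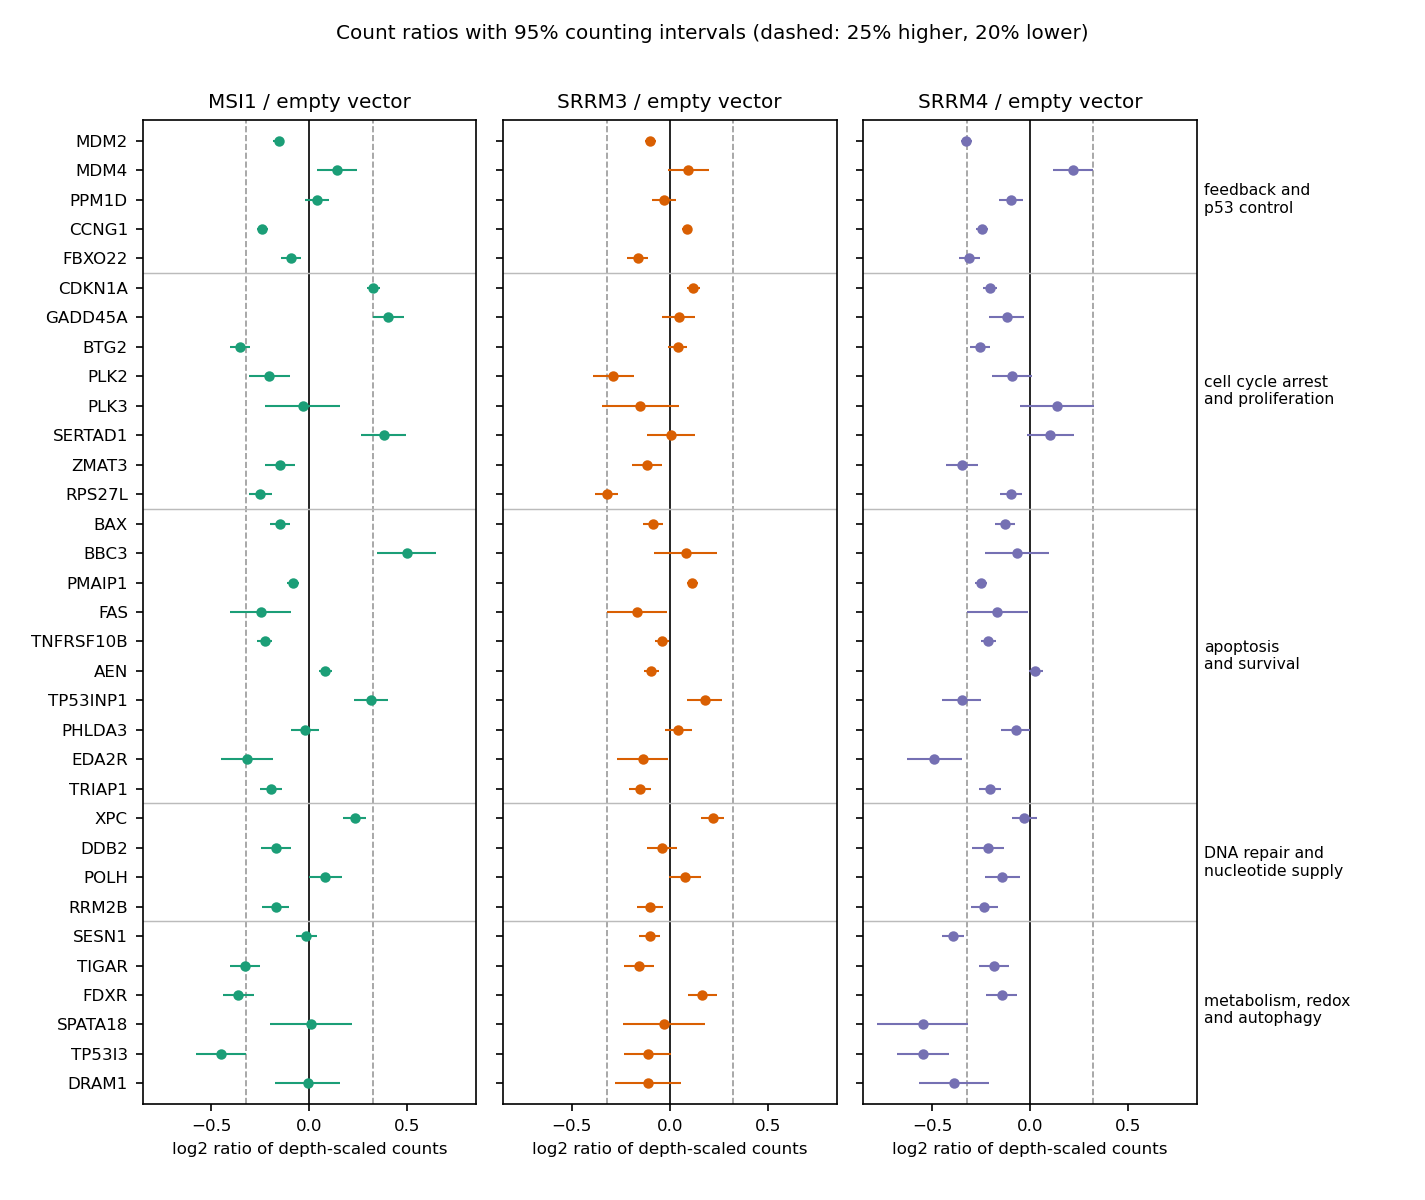
log2 ratio of depth-scaled counts over the empty vector for each member in MSI1, SRRM3 and SRRM4, with 95% counting intervals as bars and dashed lines at 25% higher and 20% lower. In the SRRM4 panel 29 of 33 points lie left of 0, the MSI1 panel holds points beyond the dashed lines on both sides, and the SRRM3 points lie between or on the lines. The plotted ratios carry no pseudocount. DRAM1, MDM2, TP53INP1 and ZMAT3 in SRRM4 and TIGAR in MSI1 therefore lie beyond a line without being past the limit of the text.

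Of the 5 genes that feed back on p53, none passed the limit against the empty vector. MDM2 in SRRM4 missed it only through the pseudocount. MDM2 (ENSG00000135679, GRCh38 chromosome 12, 68808176 to 68850686), the ligase that marks p53 for degradation, was at 31.07, 27.87, 28.98 and 24.80 cRPKM in library order. SRRM4 was the lowest and the empty vector the highest, with a count ratio of 0.798 (0.782 to 0.815) between them, and 0.856 (0.838 to 0.873) for SRRM4 over SRRM3. MDM2 carries the intronic element printed above. CCNG1 (chromosome 5, 163437569 to 163446151), a p53-induced cyclin that recruits a phosphatase to MDM2, was at 150.02, 126.96, 159.57 and 126.57 cRPKM. MSI1 and SRRM4 were thus low and close to each other, and SRRM4 over SRRM3 had a ratio of 0.793 (0.778 to 0.809). MDM4, an MDM2 relative that masks the p53 activation domain, ran from 2.58 cRPKM in the empty vector to 3.0 in SRRM4 (ratio 1.162, 1.083 to 1.248). It was the 1 member of 33 that was higher in SRRM4 with an interval excluding 1, against 23.2% of compared genes. PPM1D, the phosphatase WIP1 that dampens the damage response, lay between 14.29 and 15.69 cRPKM. FBXO22, an F-box subunit of a ubiquitin ligase, lay between 8.03 in SRRM4 and 9.95 in the empty vector.

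The arrest and proliferation group had 3 of its 8 members past the limit on the higher side in MSI1 (against 7.44% of compared genes) and 1 on the lower side (against 4.86%), with the calls of CDKN1A and SERTAD1 depending on the setting as given above. CDKN1A (ENSG00000124762, chromosome 6, 36676460 to 36687339) was at 96.64, 121.07, 104.99 and 83.88 cRPKM. MSI1 was the highest, with a ratio of 1.253 (1.224 to 1.282) over the empty vector, and SRRM4 the lowest, with a ratio of 0.868 (0.846 to 0.891). GADD45A (chromosome 1, 67685061 to 67688338), a stress protein of growth arrest and repair, was at 25, 33.04, 25.82 and 23.01 cRPKM. MSI1 stood above the other libraries, with a ratio of 1.321 (1.251 to 1.396). SERTAD1 (chromosome 19, 40421592 to 40426025), which binds CDK4 and E2F partners, was at 9.25, 12.03, 9.30 and 9.93 cRPKM, again high in MSI1 alone (ratio 1.30, 1.20 to 1.41). BTG2 (chromosome 1, 203305491 to 203309602), an antiproliferative protein that promotes mRNA deadenylation, had the other pattern, at 43.61, 34.10, 44.84 and 36.54 cRPKM. It was low in MSI1 (ratio 0.782, 0.755 to 0.810) and in SRRM4 (0.838, 0.809 to 0.867), with the empty vector and SRRM3 close together.

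The other 4 members of that group did not pass the limit in any of the comparisons with the empty vector. ZMAT3, an RNA-binding zinc finger protein, lay between 4.0 cRPKM in SRRM4 and 5.09 in the empty vector. PLK2 and PLK3, polo-like kinases, lay between 7.28 and 8.88 and between 2.66 and 3.25, both lowest in SRRM3. RPS27L lay between 12 in SRRM3 and 15.00 in the empty vector, and its ratio for SRRM4 over SRRM3 was 1.17 (1.12 to 1.22).

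Among the apoptosis and survival genes the BH3-only and receptor genes differed in which library stood apart. BBC3 (PUMA; ENSG00000105327, chromosome 19, 47220822 to 47232766), which neutralises BCL2 proteins, was at 5.72, 8.06, 6.05 and 5.46 cRPKM. MSI1 was the high library, with the largest ratio among the members in any comparison with the empty vector, 1.41 (1.27 to 1.56), from 903 reads against 631. PMAIP1 (chromosome 18, 59899948 to 59904306) was at 159.64, 150.59, 172.81 and 134.12 cRPKM. SRRM4 was low and SRRM3 high, with a ratio of 0.776 (0.760 to 0.793) between them. Thus both BH3-only genes were lowest in SRRM4 and had SRRM3 above the empty vector, and their orders differed only in the place of MSI1. For BBC3 the intervals of SRRM3 and SRRM4 over the empty vector included 1. TP53INP1 (chromosome 8, 94925972 to 94949411), a stress protein that aids p53 phosphorylation and autophagy, was at 5.58, 6.94, 6.32 and 4.38 cRPKM. It had the widest range of the members, with SRRM4 below the other libraries (0.785, 0.733 to 0.841, over the empty vector; 0.694, 0.649 to 0.741, over SRRM3) and MSI1 above the empty vector (1.24, 1.17 to 1.32). EDA2R (chromosome X, 66595637 to 66639298), the ectodysplasin A2 receptor, was at 4.87, 3.91, 4.42 and 3.47 cRPKM. Its ratio was 0.713 (0.647 to 0.786) in SRRM4 and 0.803 (0.731 to 0.880) in MSI1.

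Death receptors and effectors varied less. FAS lay between 12.78 and 15.17 cRPKM, TNFRSF10B (the TRAIL receptor DR5) between 44.66 and 52.29, BAX between 75.23 and 83.48 and TRIAP1 between 69.13 and 79.54, each highest in the empty vector. AEN lay between 61.34 and 69.25 cRPKM. PHLDA3, a PH-domain inhibitor of AKT, lay between 24.46 and 26.54, the narrowest relative range of the members.

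The DNA repair group had no member past the limit against the empty vector. XPC was at 18.03, 21.16, 20.99 and 17.65 cRPKM, chosen here after its values were seen because the libraries fell into 2 pairs. DDB2, which recognises ultraviolet lesions, lay between 21.33 in SRRM4 and 24.77 in the empty vector. POLH, the translesion polymerase eta, lay between 9.92 and 11.58, and RRM2B, a ribonucleotide reductase subunit, between 10.46 and 12.29. All 4 were lowest in SRRM4, against 24.5% of compared genes. Their median log2 fold over the empty vector was -0.17 there, against -0.003 for all compared genes.

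The metabolic and autophagy group was the lowest of the 5 roles in SRRM4, with a median log2 fold of -0.35, each of its 6 members lower (against 50.9% of compared genes) and 3 past the limit (against 2.94%). The medians of the other roles lay between -0.24 for the feedback genes and -0.11 for the arrest genes, and the difference between roles was not tested. TP53I3 (PIG3, a quinone oxidoreductase; ENSG00000115129, chromosome 2, 24077433 to 24085861) was at 9.62, 7.04, 8.89 and 6.58 cRPKM. It was low in MSI1 (ratio 0.732, 0.669 to 0.800) and in SRRM4 (0.684, 0.624 to 0.751), from 1151 reads in the empty vector and 765 in SRRM4. Its ratio for SRRM4 over MSI1 was 0.935, with an interval that includes 1 (0.847 to 1.032). SESN1 (sestrin 1, an mTORC1 inhibitor; chromosome 6, 108986437 to 109094819) was at 26.12, 25.84, 24.32 and 19.89 cRPKM. SRRM4 alone was low, with a ratio of 0.761 (0.731 to 0.793). SPATA18 (a factor of mitochondrial quality control; chromosome 4, 52051331 to 52097292) was at 1.42, 1.43, 1.39 and 0.97 cRPKM, also low in SRRM4 alone (0.684, 0.581 to 0.803), from 255 reads against 384. At this low level its call depended on the pseudocount, as given above.

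FDXR (ferredoxin reductase, which passes electrons to mitochondrial cytochromes P450; chromosome 17, 74862497 to 74873031) was at 24.79, 19.30, 27.79 and 22.41 cRPKM. It was low in MSI1 (ratio 0.779, 0.736 to 0.823) and high in SRRM3 (1.12, 1.06 to 1.18). TIGAR, a fructose bisphosphatase that diverts glucose from glycolysis, lay between 15.14 in MSI1 and 19.00 in the empty vector. DRAM1, a lysosomal autophagy protein, lay between 2.14 in SRRM4 and 2.80 in the empty vector.

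SRRM4 against SRRM3 compares the related proteins without the empty vector. The same SRRM4 library enters the comparisons with the empty vector and with MSI1 and the order of the libraries. The results of SRRM4 are thus not independent of each other. Of the members 27 were lower in SRRM4 (81.8% against 51.3% of compared genes), and 6 passed the limit on the lower side: TP53INP1, TP53I3, PMAIP1, SPATA18, CCNG1 and CDKN1A (18.2% against 6.67%). None passed it on the higher side, against 3.96%, and the median log2 fold was -0.17 against -0.007. The lower count was 4 with a pseudocount of 2, 4 with TMM factors and 5 with centring. CDKN1A, at a log2 fold of -0.322, lost its call under these settings (-0.317, -0.307 and -0.315), and CCNG1 (-0.333) lost it with TMM factors (-0.318). SPATA18 (-0.363) lost its call with a pseudocount of 2 (-0.191).

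**Figure D3:**
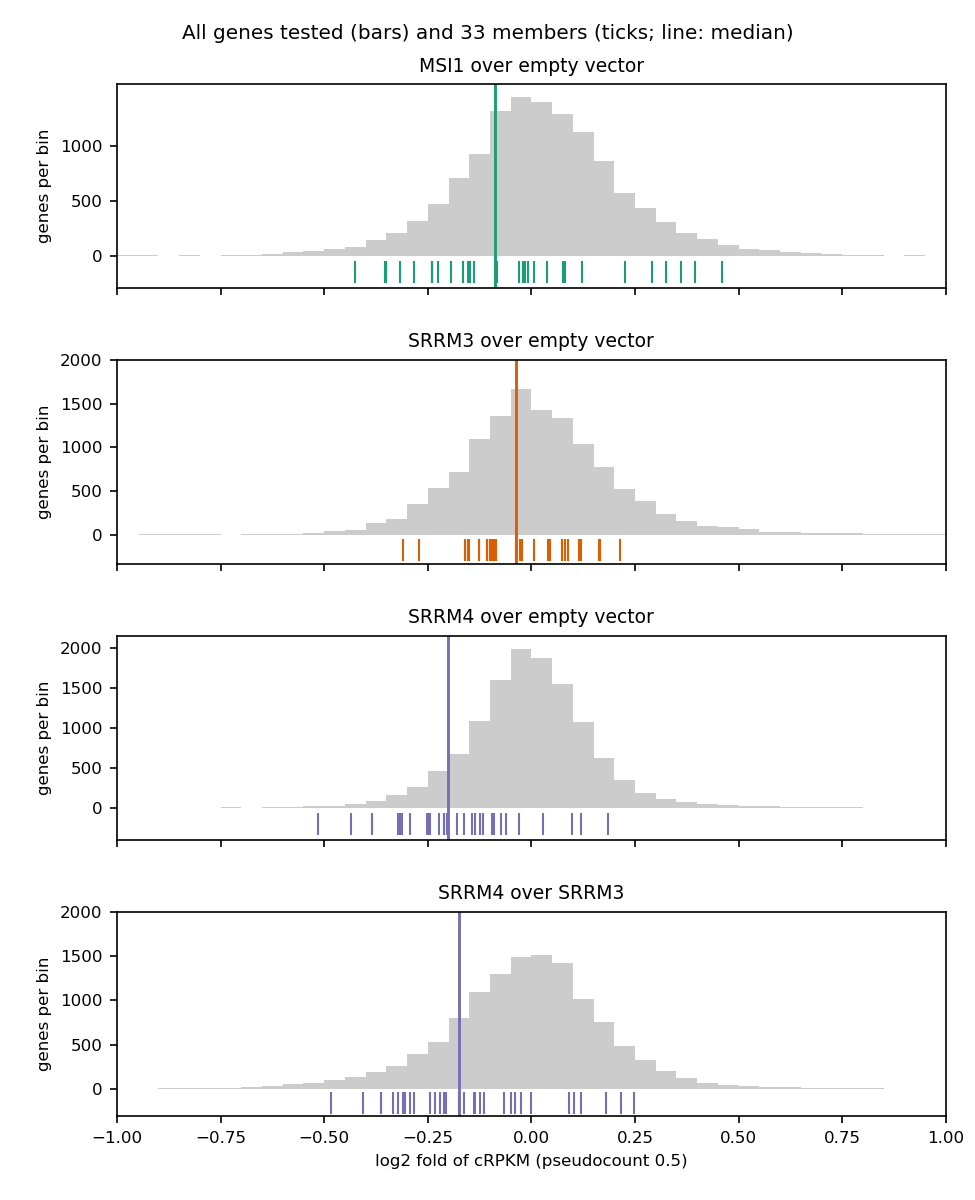
Number of compared genes per bin of log2 fold (grey bars, bins of 0.05, range cropped at -1 and 1) in 4 comparisons, with the 33 members as ticks and their median as a line. The members' medians are -0.09, -0.04, -0.20 and -0.17 from top to bottom, while the bars centre near 0 in each panel.

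Genes that act upstream of the pathway were described as a list of 41 compared p53 regulators. Their median log2 fold in SRRM4 was 0.02, with 14 of 41 lower (against 50.9% of compared genes) and 3 past the limit on the lower side (against 2.94%). In SRRM3 the list had 4 genes past the limit on the lower side (against 3.75%) and in MSI1 2 (against 4.86%). The 3 in SRRM4 were ATM, ATR and PRKDC, the damage-response kinases. ATM was at 4.07, 2.19, 3.08 and 2.66 cRPKM, and PRKDC at 67.87, 56.19, 56.17 and 50.90. ATR was at 6.85, 6.14, 5.36 and 5.21 cRPKM. In each of the 3 genes the empty vector was the highest library.

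PPP1R13L (iASPP, an inhibitor of p53) was at 1.83, 3.13, 1.99 and 2.30 cRPKM, with a ratio of 1.71 (1.496 to 1.957) in MSI1. The regulator medians in MSI1 and SRRM3 were -0.02 and -0.006.

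A separate list of 74 compared p53 targets outside the 33 had median log2 folds of -0.04 in MSI1, -0.01 in SRRM3 and -0.09 in SRRM4. In SRRM4 50 of the 74 were lower (against 50.9% of compared genes), with 5 past the limit on the lower side (against 2.94%) and 0 on the higher (against 3.36%). More genes of the list passed the limit in the other lines, 7 lower and 4 higher in MSI1 (against 4.86 and 7.44%) and 6 lower and 6 higher in SRRM3 (against 3.75 and 6.19%). GDF15, a stress-induced cytokine, was at 3.41, 0.77, 2.36 and 1.95 cRPKM. E2F7, a repressor of E2F targets, was at 20.34, 22.45, 15.26 and 13.58, so that MSI1 was not low. ASCC3, a helicase, was at 29.56, 23.60, 23.19 and 19.01, and APAF1, the apoptosome scaffold, at 14.27, 12.93, 12.83 and 10.10 cRPKM, both lowest in SRRM4.

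**Figure D4:**
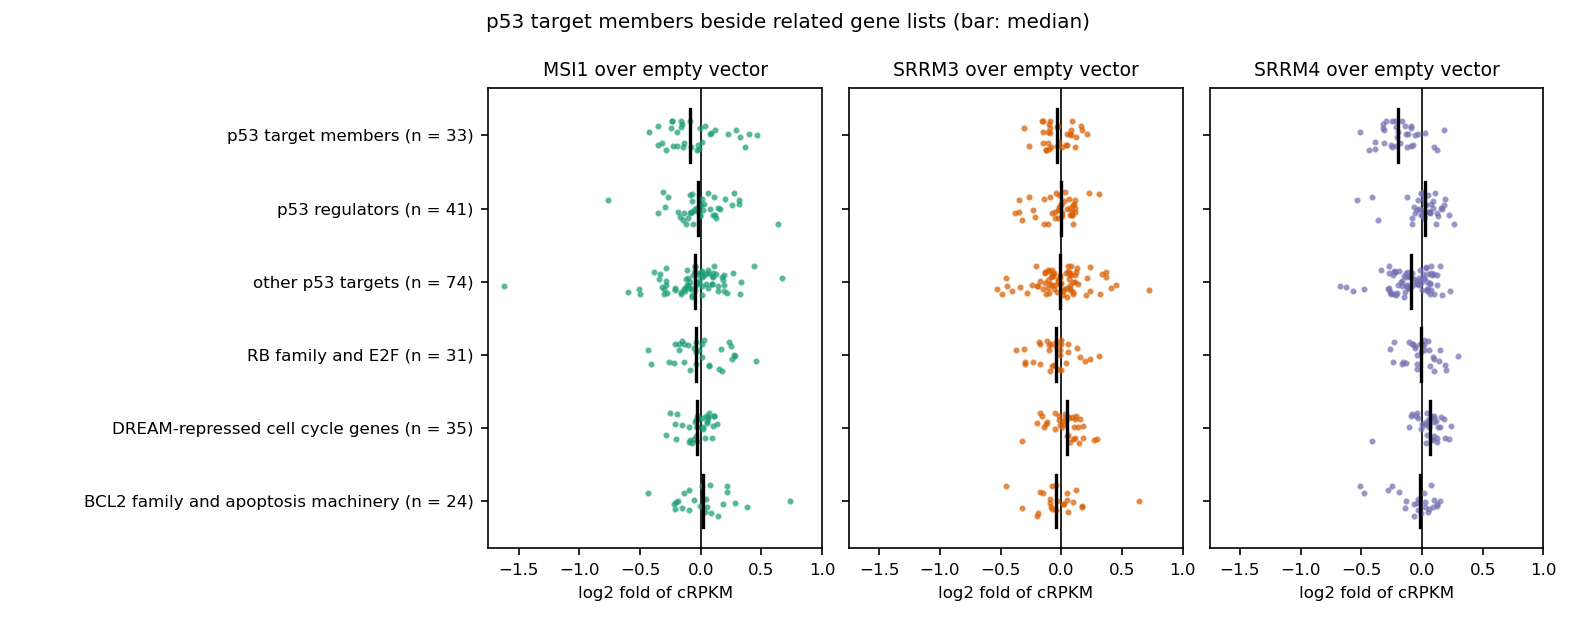
log2 fold of cRPKM over the empty vector for the members and 5 related lists, 1 point per gene (vertical scatter has no meaning), black bar for the median. In SRRM4 the members' median of -0.20 lies left of those of the other p53 targets (-0.09) and the p53 regulators (0.02).

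Some members overlap a gene on the other strand, and the sources used here do not say whether the counting used strand. XPC shares 318 of 4798 annotated exonic bases with LSM3 (25.65 to 27.83 cRPKM), FAS 380 of 4253 with ACTA2 (28.11 to 39.81), MDM2 133 of 13284 with CPM and TP53I3 80 of 2312 with FAM228B. Reads of FAS were counted over only 0.775 kb, as given above, so its annotated exonic bases overstate the length behind its reads. Whether the bases shared with ACTA2 lie in that length is not known. The part of these overlapping genes in the values was not tested.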

How the data were processed

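Each of the 4 libraries has a deposited file with an Ensembl ID, a cRPKM value (a corrected RPKM, per the file names) and a whole-number read count per gene; the authors' build was GRCh38 (hg38), per the submitters' processing notes, while the sources used here name no aligner, counter or strand setting. The deposited RPKM values equalled the deposited count divided by library total and a gene-specific length, to within 0.178% over 8552 genes. Of 41614 listed genes 1426 had no value. Symbols (39941 genes) came from a table of gene names and GENCODE 29, coordinates from GENCODE 29, and promoter windows from RefSeq (GRCh38.p14).

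Members and lists were chosen with earlier results of these data known, including a small negative median of p53 targets in SRRM4, and the limit of 25% higher or 20% lower was set with that in view. Members printed for all libraries are MDM2, CDKN1A and those past that limit with an interval excluding 1 in a comparison (14 in all), plus XPC, chosen after its values were seen; other lists give up to 4 genes with the largest SRRM4 fold. A further gene that the rule names is not reported here. Folds are log2 ratios of cRPKM with a pseudocount of 0.5 over genes with a mean of at least 1; ratios are of depth-scaled counts with exact conditional (Clopper-Pearson) 95% intervals. Reads are not independent molecules, and 3 counts, the floor, are about 0.05 CPM. With 1 library per group edgeR gave TMM factors only. The procedure was tested on simulated counts that held counting error only and planted 2-fold changes. That test does not cover changes near the limit or variation between cell lines. Alternatives were other pseudocounts, filters, fold limits, centring, TMM, the mean and another control. Tools were edgeR 4.0.16 under R 4.3.3, and matplotlib 3.10.9, scipy 1.17.1, pandas 2.3.3 and numpy 2.4.6 under Python 3.11.15.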

Additional observations from a re-analysis of the deposited data

Results flagged for a closer look

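In 3 members a pair of induced lines fell to either side of the control, both with counting intervals that excluded 1 and at least 1 of them past the limit of 25% higher or 20% lower. CDKN1A had log2 folds of 0.324 in MSI1 and -0.203 in SRRM4, but the MSI1 fold was under the limit of 0.322 with a pseudocount of 2 (0.319), centring (0.308) and TMM factors (0.293). GADD45A had 0.395 in MSI1 and -0.117 in SRRM4. FDXR had -0.353 in MSI1 and 0.162 in SRRM3. TP53INP1 had 0.291 in MSI1 and -0.317 in SRRM4, both with intervals that excluded 1. It was not among the 3 because both folds fell short of the limit, the SRRM4 fold only through the pseudocount. The difference between the lines was not tested, because there is 1 library per group, and the comparisons share the empty vector.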

How the results depend on the processing

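No paired analysis was possible because each group has 1 library, and no replicate could be left out. The median log2 fold of the members kept its sign in all 4 comparisons under every alternative. A move of it was judged by the median half-width of the members' single-gene counting intervals, 0.074 to 0.077. Only SRRM4 with MSI1 as control moved by more than that (-0.091 against -0.201). A median over the members has a smaller counting error than a single gene. Smaller moves, such as MSI1 at -0.149 with a mean of at least 5 cRPKM against -0.087, are thus not shown to lie within counting error. Counts of members at least 20% lower moved with CPM and TMM factors to 5 from 3 in MSI1, 1 from 0 in SRRM3 and 7 from 4 in SRRM4. In SRRM4 that count was 8 with a pseudocount of 0.1 and 2 with a mean of at least 5 cRPKM. With a pseudocount of 2 the higher count in MSI1 was 2 in place of 4. With MSI1 as control SRRM3 had 3 lower and 3 higher members, 9.09% each against 7.31 and 8.03% of compared genes. At 1.5-fold and at 2-fold the lower and higher counts in MSI1, and the lower counts in SRRM4 over the empty vector and over SRRM3, were 0. The cause of these moves was not tested, beyond the smaller number of genes or the stricter limit that a setting imposes. Of the named genes, SPATA18 in MSI1 turned from 0.007 to -0.008 with centring and -0.021 with TMM, and SERTAD1 in SRRM3 to -0.004 with TMM. Centring and TMM moved the median of all compared genes by less than 0.1. Depth limits the folds of genes with few reads, such as SPATA18 (255 to 392 reads) and FAS (624 to 730).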

Other observations

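Genes that p53 represses through the DREAM complex (35 cell cycle genes, among them CCNB1, PLK1 and the MCM helicase subunits) had median log2 folds over the control of -0.04 (MSI1), 0.04 (SRRM3) and 0.07 (SRRM4), and 9 of the 35 were lower in SRRM4, against 50.9% of compared genes. CDK1, the mitotic kinase, was the 1 gene past the limit of 25% higher or 20% lower there, on the lower side, at 114.42, 111.66, 91.49 and 85.96 cRPKM in the order empty vector, MSI1, SRRM3, SRRM4. MCM6 was at 98.29, 85.33, 120.17 and 114.52 cRPKM, so that MSI1 was low and both SRRM libraries high.

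A list of RB family, E2F, cyclin, CDK and CDK inhibitor genes and their partners (31 compared) had medians of -0.04, -0.05 and -0.007. E2F2 stood at 8.02 cRPKM in the control and between 9.87 and 10.05 in the other libraries, and CDK6 was at 13.48 against 10.89 to 11.32. The BCL2 family and apoptosis machinery list (24 genes) had medians of 0.02, -0.05 and -0.02. BAK1, a relative of BAX, was at 34.12, 39.77, 24.75 and 23.77 cRPKM, a ratio of 0.697 (0.665 to 0.730) in SRRM4, while BAX stayed between 75.23 and 83.48.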
